A study of Mus musculus with 6 samples.

Results

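The genes of the lysosome described here are 10 cathepsins, 18 other hydrolases and their activators, 6 lysosomal membrane proteins and 13 subunits of the proton pump (V-ATPase). They were chosen by name for their known place in the lysosome, with earlier results of these data known. The set holds 47 of the 29097 genes listed, and all 47 were expressed highly enough to be tested, among 10440 genes tested. They were measured in neutrophils sorted as CD45+CD11b+Ly6G+ cells from the peripheral blood (PB) of male C57BL/6 mice aged 8 weeks, with no engineered allele named for any group. Ligature-induced periodontitis (LIP) was produced by tying silk around molars for 14 d, and control mice (Ctrl) were left without ligatures for the same 14 d. The sample labels call the LIP group Lig. Each group had 3 Smart-seq2 libraries, and as each library pools 5 mice, single animals cannot be seen and the spread is that between pools. The comparison asks how the RNA of PB neutrophils differed after LIP.

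The lysosome is an acidic organelle in which enzymes break down proteins, sugars and lipids taken up or recycled by the cell. The V-ATPase acidifies it, and consists of a V0 part in the membrane that conducts protons and a V1 part in the cytosol that splits ATP. In neutrophils some of these hydrolases and membrane proteins also occur in granules, which derive from the same sorting route. Transcription factors of the TFEB family bind a short palindrome found in the promoters of many lysosomal genes.

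Read totals lay between 52186555 and 57262379 per library. The make-up of the libraries differed between the groups. Haemoglobin genes took 14.6% to 15% of reads in Ctrl and 1.55% to 1.61% in LIP, and all 10 B cell markers and all 10 T cell markers were lower in LIP, whereas all 20 markers of mature neutrophils were higher (median log2 fold change 1.82). In bulk RNA, fewer cells of one type and less RNA per cell cannot be told apart, and whether this shift in make-up contributed to the results below was not tested. For this reason each class is given both under TMM scaling, which sets the bulk of genes to no change, and scaled on the 20 mature neutrophil genes. The latter shows a gene against the neutrophil markers of the same library. Under TMM scaling the log2 fold changes of these markers ran from 0.93 to 2.51. A gene lower against them as a set may therefore have risen more than some of them. Whether LIP changed the markers within neutrophils was not tested.

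Under TMM scaling, 32 of the 47 lysosomal genes were higher in LIP, 1 was lower and 14 did not pass the test (edgeR's quasi-likelihood test, Benjamini-Hochberg adjusted p under 0.05), but scaled on the mature neutrophil genes 0 were higher and 41 were lower. Among all genes tested, 26.5% were higher and 27.2% lower under TMM scaling, against 68.1% and 2.13% of the lysosomal genes. Scaled on the mature neutrophil genes, the shares over all genes were 0.747% higher and 87.5% lower. In 34 lysosomal genes every LIP library lay above every Ctrl library, and in 2 every LIP library lay below, beside 30.3% and 33.1% of all genes tested. The median log2 fold change was 0.70 for the lysosomal genes and -0.09 for all genes. Scaling on the neutrophil genes moved the median of all genes to -1.86 and that of the lysosomal genes to -1.07, so 40 of the 47 stayed above the median gene. Most of the lysosomal genes thus stood higher than the typical gene, and lower than the typical neutrophil marker, in LIP.

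**Figure D1:**
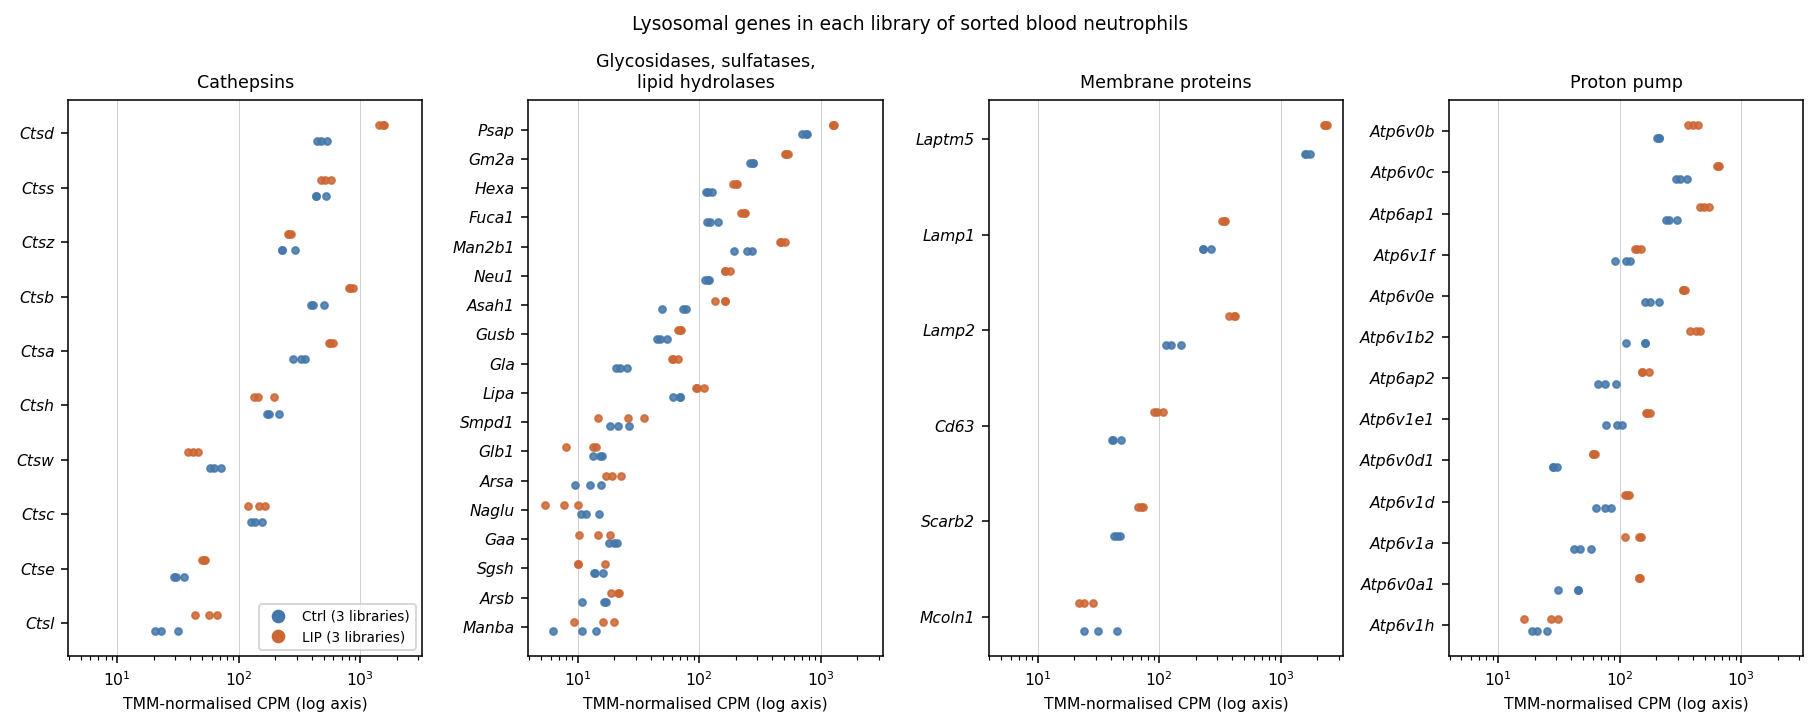
TMM-normalised CPM (reads scaled to library size as adjusted by TMM) of the 47 lysosomal genes in each library, on a log axis. Genes are ordered within each class by mean FPKM. Blue points are the 3 Ctrl and orange points the 3 LIP libraries; the groups stand apart for Ctsd, Lamp2 and Atp6v0a1 and overlap for Ctss, Ctsz and Ctsc.

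The abundant genes passed the test more often. Of the 35 lysosomal genes with a mean FPKM (fragments scaled to gene length and library size) of at least 10, 30 were higher under TMM scaling, and of the 12 below that level 2 were higher, Ctsl and Scarb2, the latter not passing in limma's fits (log2 fold change 0.33 with a pseudocount of 0.1 and 0.30 with 1). Over all genes tested the shares called higher were 45.2% at or above that level and 17.5% below it. The median standard error of the log2 fold change was 0.127 in the more abundant and 0.253 in the rarer lysosomal genes. A change of the same size was thus less precisely measured in the rarer ones. The size of the change differed as well, with a median log2 fold change of 0.88 in the more abundant and 0.2 in the rarer lysosomal genes. Over all genes tested these medians were 0.26 and -0.23. The part of precision and of size in the split of calls was not tested.

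The promoters of some of the genes carry the palindrome read by the TFEB family. In RefSeq's windows from 250 bases before to 50 bases after the gene start (GRCm38.p6), 40 of the 47 genes could be matched, and TCACGTGA, which reads the same on both strands, occurred in 7 of them (17.5%) and in 304 of 27025 genes in all (1.12%). The shorter CACGTG, which lies inside it, occurred in 15 of the 40 (37.5%) and in 8.09% of all genes. The 27025 include genes too rare to be tested here, whereas all 40 were tested, so the 2 sets also differ in expression. The palindrome is known from promoters of many lysosomal genes, and these genes were chosen as lysosomal. Its higher share among them is therefore a description and no result of these data. The 7 genes were Ctsa, Ctsd, Gla, Mcoln1, Atp6v0d1, Atp6v0e and Atp6v1a, of which 6 were higher in LIP under TMM scaling and Mcoln1 was not called. Of the genes with a window, 6 of 28 that were higher and 1 of 12 that were not called held the longer motif, whereas the shorter one was in 9 of the 28 (32.1%) and 6 of the 12 (50%), so the split ran in opposite directions for the 2 motifs. A match describes the letters and does not show binding. The sites of 4 of these genes are printed as the most changed carriers of a cathepsin, a glycosidase and a pump subunit, with the carrier that did not pass, on the strand of the gene and with the motif in capitals.
Ctsd: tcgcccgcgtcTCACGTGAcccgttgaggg
Gla: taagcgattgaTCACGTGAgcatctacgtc
Gla: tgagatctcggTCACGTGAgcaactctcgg
Atp6v1a: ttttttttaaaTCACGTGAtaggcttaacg
Mcoln1: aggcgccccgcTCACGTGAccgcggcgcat
The Ctsd site lies at chr7:142387908-142387937 on the minus strand, inside an untranslated part of a GENCODE vM21 transcript. The Gla sites lie at chrX:134601215-134601244 and chrX:134601182-134601211 on the minus strand, upstream of every annotated transcript, so that this gene carries the motif in a pair. The Atp6v1a site lies at chr16:44139373-44139402 on the minus strand, upstream of every GENCODE vM21 transcript checked. It is nevertheless inside the gene span listed with the counts, chr16:44085402-44139705. The Mcoln1 site lies at chr8:3500462-3500491 on the plus strand, in an untranslated part.

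The cathepsins, the proteases of the lysosome, split. Under TMM scaling 5 of 10 were higher in LIP, 1 was lower and 4 did not pass (median log2 fold change 0.43). Among all genes tested 26.5% were higher and 27.2% lower. Scaled on the mature neutrophil genes, where 87.5% of all genes were lower, 0 were higher, 9 were lower and Ctsd was not called. Ctsd, an aspartic protease (chr7:142375911-142388038, minus strand), had 443, 533 and 475 CPM in the Ctrl libraries and 1427, 1558 and 1545 CPM in the LIP libraries. Each LIP library was far above each Ctrl library. Its log2 fold change of 1.64 (standard error, SE, 0.0934) was the largest of the cathepsins, with an adjusted p of 4.1e-07 from edgeR. Against the neutrophil markers its log2 difference was -0.12 and was not called.

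The cysteine proteases divided further. Ctsl had 22.7, 31.8 and 20.6 CPM in Ctrl and 56.4, 66.6 and 43.6 CPM in LIP. Ctsb had 390, 504 and 409 CPM in Ctrl and 823, 877 and 809 CPM in LIP. The groups did not overlap in either gene, and the log2 fold changes were 1.15 (SE 0.215, adjusted p = 0.00121) and 0.95 (SE 0.109, adjusted p = 4.44e-05, edgeR). Ctsa, the serine carboxypeptidase that also protects beta-galactosidase and neuraminidase, and Ctse, a second aspartic protease, were higher by 0.84 (SE 0.106) and 0.70 (SE 0.145) on the log2 scale, again without overlap.

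Ctss, known for trimming the invariant chain in antigen presentation, was among the most abundant lysosomal RNAs and did not pass. It had 430, 522 and 435 CPM in Ctrl and 473, 571 and 510 CPM in LIP, so the groups overlapped, with a log2 fold change of 0.16 (SE 0.111, adjusted p = 0.235, edgeR). Ctsz, a carboxypeptidase, had a log2 fold change of 0.07 (adjusted p = 0.615) and Ctsc, which activates the serine proteases of neutrophil granules, one of 0.04 (adjusted p = 0.84), both with overlapping groups in edgeR's fit. Leaving out Ctrl 2, the highest Ctrl library for Ctss and Ctsz, brought both under the threshold, at 0.28 and 0.22. Ctsh, an aminopeptidase, had a log2 fold change of -0.25 (SE 0.152) with overlap, and passed without Lig 2, at -0.42. The sum of the B cell markers, cells that also express Ctss, went from 3848 ± 154 to 580 ± 37.3 FPKM (n = 3 each, SD), and its part in these values was not tested.

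Ctsw was the lysosomal gene that fell. This protease, known from NK cells and cytotoxic T cells, had 58.3, 71.1 and 62.8 CPM in Ctrl and 42.2, 45.7 and 38.5 CPM in LIP, without overlap. Its log2 fold change was -0.60 (SE 0.142, adjusted p = 0.00468, edgeR), and it was lower in each of the 6 fits that left out a library. Of 10 NK and cytotoxic cell markers 3 were higher and 0 lower under TMM scaling, with a summed FPKM of 546 to 629 in Ctrl and 462 to 508 in LIP, and the most abundant, Nkg7, did not pass (log2 fold change -0.15, adjusted p = 0.265). The summed T cell markers stood at 231 to 251 FPKM in Ctrl and 34.0 to 47.1 in LIP. The part of either cell type in the fall of Ctsw was not tested.

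In relative terms the leading protease RNA changed. By mean FPKM, Ctsd was the fourth lysosomal gene in Ctrl at 212 ± 16.6 and the first in LIP at 535 ± 28.1, whereas Ctss was at 351 ± 34.4 and 318 ± 31.5 (n = 3 each, SD). The ratio of Ctsd to Ctss within a library was 0.596, 0.590 and 0.630 in Ctrl and 1.74, 1.58 and 1.75 in LIP. Ctsd stood below Ctss in each Ctrl library and above it in each LIP library. This ratio does not depend on how libraries are scaled. It and the other ratios below were chosen after their values were seen and are given as a description, with no test.

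The inhibitors and partners of the cathepsins were listed separately. The list held cystatins, the granule proteases that Ctsc activates and Mpo, the granule myeloperoxidase. Of its 5 tested genes, 2 were higher under TMM scaling and 0 lower, with a median of -0.02. The shares over all genes tested were 26.5% and 27.2%. Cst3, the secreted inhibitor cystatin C, rose most, from 255, 355 and 311 CPM in Ctrl to 600, 655 and 627 CPM in LIP (log2 fold change 1.03, SE 0.122, adjusted p = 5.43e-05, edgeR). Its FPKM was 0.249 ± 0.0207 of the summed cathepsins in Ctrl and 0.315 ± 0.0035 in LIP (n = 3 each, SD), without overlap.

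Among the 18 hydrolases other than cathepsins and their activators, 10 were higher in LIP under TMM scaling, 0 were lower and 8 did not pass. The shares over all genes tested were 26.5% higher and 27.2% lower. Scaled on the mature neutrophil genes, where 87.5% of all genes were lower, 17 were lower and Gla was not called. The median log2 fold change of the 18 was 0.56 under TMM scaling. Glycosidases gave 6 of 10 higher (median 0.54), sulfatases 0 of 3 (median 0.49), and lipid hydrolases with their activators 4 of 5 (median 0.78).

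Gla, the alpha-galactosidase that removes galactose from glycolipids, changed most. It had 20.8, 22.2 and 25.4 CPM in Ctrl and 61.4, 66.7 and 59.3 CPM in LIP. The groups were widely separated, with a log2 fold change of 1.45 (SE 0.15, adjusted p = 1.99e-05, edgeR). This is the gene with the pair of palindromes printed above, and their part in its change was not tested.

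Man2b1, the lysosomal alpha-mannosidase, had 274, 193 and 247 CPM in Ctrl and 511, 464 and 473 CPM in LIP (log2 fold change 1.02, SE 0.13). Fuca1, which removes fucose, and Hexa, the alpha chain of beta-hexosaminidase, were higher by 0.86 and 0.72 on the log2 scale without overlap. Neu1, the lysosomal sialidase, and Gusb, the beta-glucuronidase, changed less, by 0.54 (adjusted p = 0.00171) and 0.50 (adjusted p = 0.00847, edgeR), and neither passed when libraries were scaled by their totals.

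The remaining glycosidases were rare and did not pass. Naglu, an enzyme of heparan sulfate breakdown, had 10.7, 15.1 and 11.7 CPM in Ctrl and 5.35, 7.69 and 10 CPM in LIP, so every LIP library was below every Ctrl library, but its log2 fold change of -0.70 (SE 0.308) had an adjusted p of 0.0784 in edgeR's test. Gaa, the acid alpha-glucosidase that degrades glycogen, and Glb1, the beta-galactosidase, had log2 fold changes of -0.46 (SE 0.251) and -0.31 (SE 0.271), and Manba, the beta-mannosidase, 0.54 (SE 0.361), each with overlap. Leaving out Lig 3 brought Naglu under the threshold, at -0.94, and leaving out Lig 1 did so for Gaa, at -0.67. The sign thus differed within the class under TMM scaling, and no negative value passed with all 6 libraries.

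Of the sulfatases, Arsa, which acts on sulfatide, had 9.53, 12.6 and 15.7 CPM in Ctrl and 17.1, 19.1 and 22.7 CPM in LIP. The groups did not overlap, and the log2 fold change of 0.64 (SE 0.251) had an adjusted p of 0.0513 in edgeR's test, just above the threshold. Arsb, which acts on dermatan sulfate, had a log2 fold change of 0.49 (adjusted p = 0.0988) without overlap, and Sgsh, an enzyme of heparan sulfate breakdown, one of -0.24 (adjusted p = 0.469, edgeR) with overlap. Without Ctrl 3 or without Lig 1, Arsa passed, at 0.83 and 0.73.

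The enzymes and activators of lipid breakdown were more abundant. Asah1, the acid ceramidase, had 73.9, 49.6 and 78.3 CPM in Ctrl and 164, 162 and 135 CPM in LIP (log2 fold change 1.19, SE 0.174, adjusted p = 0.000234, edgeR). Psap, the precursor of the saposins that present sphingolipids to their hydrolases, had 756, 700 and 777 CPM in Ctrl and 1262, 1271 and 1290 CPM in LIP. Its log2 fold change of 0.78 had one of the smallest standard errors of the genes described, 0.0786. Gm2a, the activator that lifts ganglioside GM2 for beta-hexosaminidase, and Lipa, the acid lipase for cholesteryl esters, were higher by 0.94 (SE 0.0885) and 0.58 (SE 0.124), while Smpd1, the acid sphingomyelinase, had a log2 fold change of 0.19 (SE 0.299) with overlap.

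**Figure D2:**
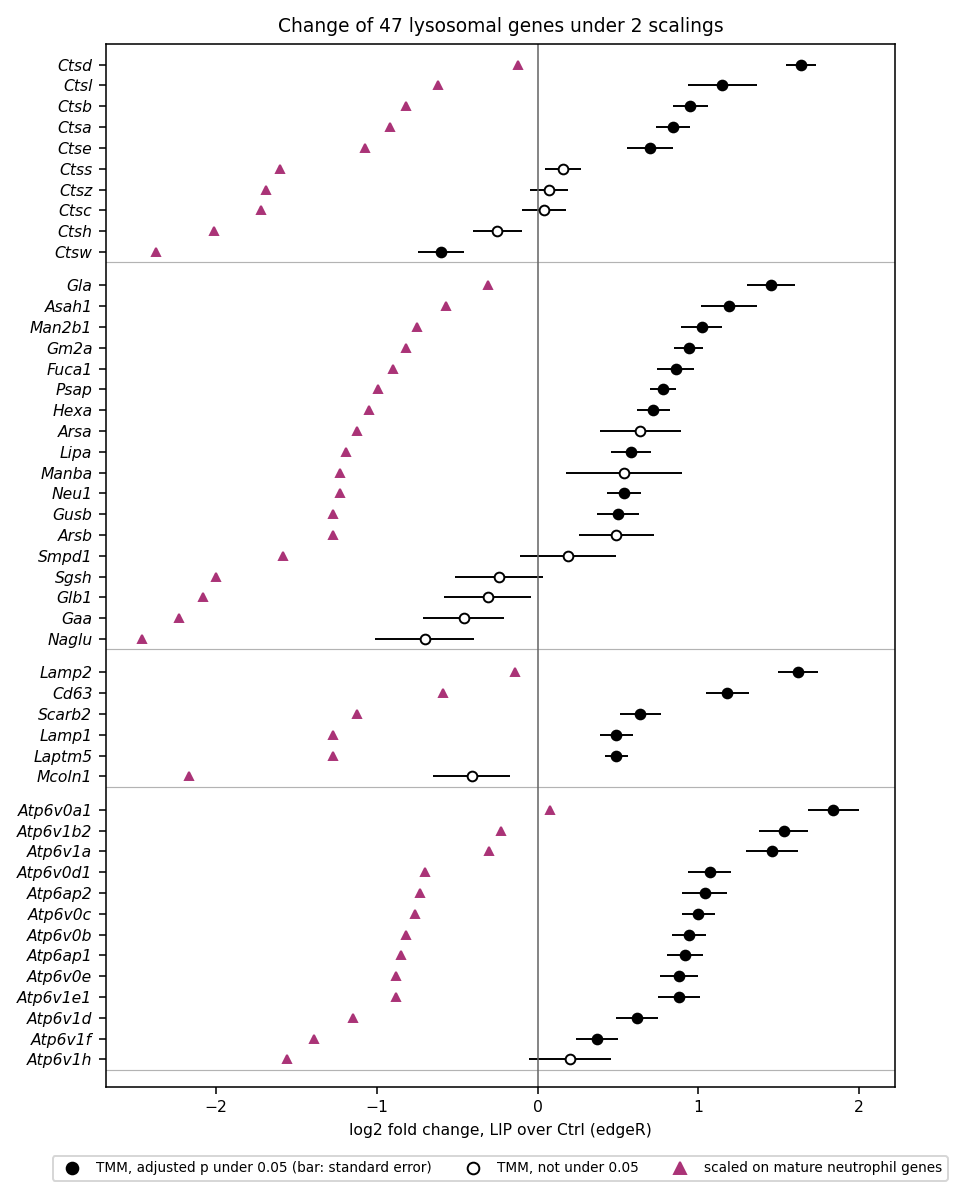
Log2 fold change of each lysosomal gene, LIP over Ctrl, under TMM scaling (circles, filled where the adjusted p was under 0.05, with the standard error as a bar) and scaled on the mature neutrophil genes (triangles). The panels from top to bottom are cathepsins, other hydrolases, membrane proteins and proton pump; under TMM scaling 32 filled circles lie right of 0 and Ctsw left of it, whereas all triangles but that of Atp6v0a1 lie left of 0.

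Of the 6 membrane proteins 5 were higher in LIP under TMM scaling and 0 were lower (median log2 fold change 0.57). The shares over all genes tested were 26.5% and 27.2%. Scaled on the mature neutrophil genes, where 87.5% of all genes were lower, 5 were lower and Lamp2 was not called. Lamp2, a structural membrane glycoprotein that also takes part in autophagy, had 152, 125 and 113 CPM in Ctrl and 421, 373 and 408 CPM in LIP. Its log2 fold change was 1.62 (SE 0.127, adjusted p = 2.84e-06, edgeR). Its relative Lamp1 had 227, 267 and 229 CPM in Ctrl and 327, 350 and 340 CPM in LIP, a log2 fold change of 0.49 (SE 0.102, adjusted p = 0.00236, edgeR). Neither gene overlapped between the groups, but the ratio of Lamp2 to Lamp1 by FPKM was 0.131 to 0.187 in Ctrl and 0.298 to 0.360 in LIP, so the ratio was higher in each LIP library than in each Ctrl library.

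Cd63, a tetraspanin of lysosomes and primary granules, had 40.4, 48.1 and 41.7 CPM in Ctrl and 96.1, 107 and 90.8 CPM in LIP (log2 fold change 1.18, SE 0.132). Scarb2, the receptor that carries beta-glucocerebrosidase to the lysosome, was higher by 0.64 (SE 0.126), and Laptm5, a membrane protein of blood cells and the most abundant gene described by mean FPKM, by 0.49 (SE 0.0717). All 3 were without overlap. Mcoln1, the calcium channel of the lysosome, had 23.8, 31.2 and 44.5 CPM in Ctrl and 24.2, 28.6 and 21.8 CPM in LIP, with overlap and a log2 fold change of -0.41 (SE 0.238, adjusted p = 0.164, edgeR). Mcoln1 varied more between Ctrl than between LIP libraries, with Ctrl 3 the highest.

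The proton pump had the highest share called of the 4 classes. Under TMM scaling 12 of 13 subunits were higher in LIP, 0 were lower and Atp6v1h did not pass (median log2 fold change 0.94). Among all genes tested 26.5% were higher and 27.2% lower. Scaled on the mature neutrophil genes, where 87.5% of all genes were lower, 0 were higher and 10 were lower. Atp6v0a1, Atp6v1a and Atp6v1b2 were not called there. All 5 subunits of V0 were higher under TMM scaling (median 1.00), as were 5 of 6 of V1 (median 0.75) and both accessory subunits (median 0.98). In all 12 the LIP libraries lay above the Ctrl libraries without overlap, as they did in 30.3% of all genes tested.

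In V0, Atp6v0a1, a membrane subunit of the proton path that also steers the pump to its compartment, had 45.7, 31.1 and 45.1 CPM in Ctrl and 144, 148 and 144 CPM in LIP. The LIP libraries were nearly equal and the Ctrl libraries were all lower. Its log2 fold change of 1.84 (SE 0.158, adjusted p = 5.5e-06, edgeR) was the largest of the 47 genes, and it alone was on the positive side against the neutrophil markers, at 0.08, without being called. Of its paralogs, Tcirg1, the a3 subunit, was higher by 0.80 (SE 0.156, adjusted p = 0.00158) and Atp6v0a2 had -0.09 (adjusted p = 0.686, edgeR), both named here after their values were seen. The ratio of Atp6v0a1 to Tcirg1 by FPKM was 0.490 to 0.687 in Ctrl and 1.03 to 1.28 in LIP, so the order of these isoforms was turned.

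The other V0 subunits moved by similar amounts. Atp6v0d1, which links the membrane ring to the stalk, had 28.3, 30.6 and 28.4 CPM in Ctrl and 62.3, 60.6 and 59.9 CPM in LIP, a log2 fold change of 1.07 (SE 0.134). Atp6v0c, the proteolipid of the ring, had a log2 fold change of 1.00 (SE 0.102), and Atp6v0b, a second proteolipid, one of 0.94 (SE 0.105). Reads of Atp6v0c may be divided with Atp6v0c-ps2, a processed pseudogene listed at a mean of 44.0 FPKM. Atp6v0e was higher by 0.88 (SE 0.117).

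In V1, Atp6v1a and Atp6v1b2 form the head that splits ATP. Atp6v1a had 47.6, 42.4 and 57.7 CPM in Ctrl and 111, 150 and 145 CPM in LIP, and Atp6v1b2 had 162, 113 and 163 CPM in Ctrl and 426, 458 and 381 CPM in LIP. Their log2 fold changes were 1.46 (SE 0.161) and 1.53 (SE 0.15). Of the stalk subunits, Atp6v1e1 was higher by 0.88 (SE 0.131), Atp6v1d by 0.62 (SE 0.13) and Atp6v1f by 0.37 (SE 0.128). The catalytic head therefore showed the largest values in V1 and Atp6v1f the smallest that passed.

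The call of Atp6v1f depended on single libraries. It had 92.5, 121 and 112 CPM in Ctrl and 138, 149 and 133 CPM in LIP, with an adjusted p of 0.0322 in edgeR's test, and of the 6 fits that left out a library it passed only in that without Ctrl 2. Its log2 fold change was 0.27 without Ctrl 1, 0.39 without Ctrl 3, 0.38 without Lig 1, 0.32 without Lig 2 and 0.40 without Lig 3, with adjusted p between 0.0542 and 0.102 in edgeR's test. Atp6v1h, a regulatory subunit that couples V1 to V0, had 25.4, 20.8 and 18.9 CPM in Ctrl and 16.3, 31.0 and 27.5 CPM in LIP, with overlap (log2 fold change 0.20, SE 0.255, adjusted p = 0.529, edgeR). Atp6ap1 and Atp6ap2, the accessory subunits, were higher by 0.92 (SE 0.112) and 1.04 (SE 0.141).

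The rest of the pump and its assembly were less uniform. Of 10 other tested subunits and assembly factors, 4 were higher and 3 lower under TMM scaling, with a median of 0.12. The shares over all genes tested were 26.5% and 27.2%. Dmxl2, a component of the complex that reassembles V1 with V0, had 68.3, 48.1 and 52.1 CPM in Ctrl and 261, 249 and 252 CPM in LIP (log2 fold change 2.18, SE 0.144, adjusted p = 1.02e-06, edgeR), and it was higher against the neutrophil markers also. Its paralog Dmxl1 had 72.6, 69.2 and 67.6 CPM in Ctrl and 24.3, 14.7 and 28.3 CPM in LIP, a log2 fold change of -1.64 (SE 0.22, adjusted p = 0.000129, edgeR). By FPKM, Dmxl2 lay at 3.67 to 5.39 in Ctrl and 15.6 to 16.2 in LIP, and Dmxl1 at 3.17 to 3.47 and 0.560 to 1.08. The other genes that fell, named after their values were seen, were the assembly factors Ccdc115 (log2 fold change -0.77) and Vma21 (-0.72).

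The summed FPKM of the 47 genes was 2755 ± 118 in Ctrl and 3706 ± 110 in LIP (n = 3 each, SD). Within that sum the cathepsins made up 36.2% ± 1.85 in Ctrl and 35.3% ± 1.05 in LIP, which overlapped, and the other hydrolases 21.6% ± 1.74 and 22.3% ± 0.486, which also overlapped (n = 3 each, SD). The proton pump took 20.9% to 21.4% in Ctrl and 23.2% to 24.7% in LIP, and the membrane proteins 20.9% to 21.3% in Ctrl and 18.0% to 18.9% in LIP, both without overlap. Single genes shifted more. Ctsd took 7.68% ± 0.278 of the sum in Ctrl and 14.4% ± 0.422 in LIP, and Ctss 12.7% ± 0.707 and 8.57% ± 0.597 (n = 3 each, SD). The FPKM values are set to library totals, with haemoglobin included.

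**Figure D3:**
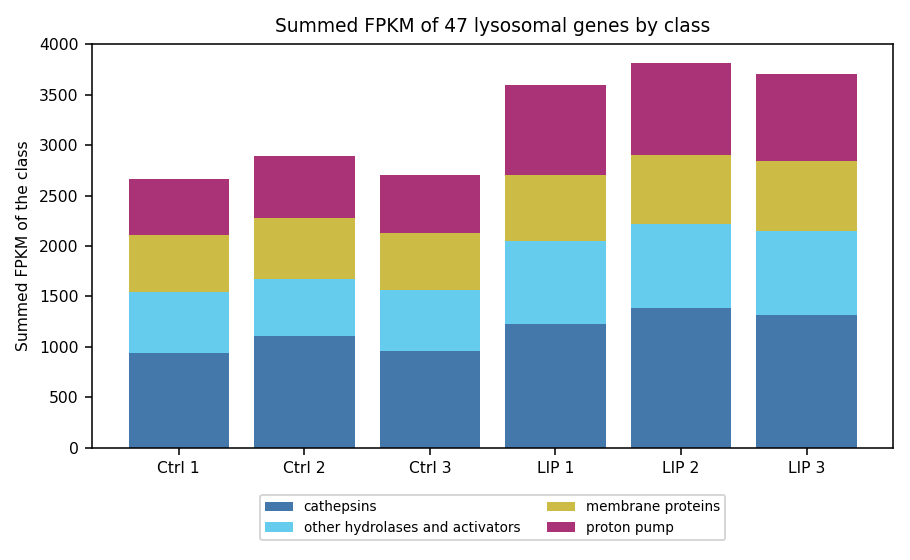
Summed FPKM of the 47 lysosomal genes in each library, stacked by class on an axis that starts at 0. The sums lie between 2668 and 2890 in Ctrl and between 3596 and 3815 in LIP, and the proton pump takes a larger share in each LIP library; scaled on the mature neutrophil genes, these genes were not higher in LIP.

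The TFEB family and its regulators at the lysosome are known to control lysosomal genes and were listed separately. Of 14 tested, 9 were higher under TMM scaling and 0 were lower (median log2 fold change 0.59). Among all genes tested 26.5% were higher and 27.2% lower. The 14 log2 fold changes ran from -1.08 to 1.55. The summed FPKM of the 20 genes listed was 214 ± 7.54 in Ctrl and 214 ± 9.55 in LIP (n = 3 each, SD). Mitf had 5.91, 5.13 and 2.21 CPM in Ctrl and 14.0, 13.1 and 11.7 CPM in LIP (log2 fold change 1.55, SE 0.376, adjusted p = 0.00568, edgeR), at a low level. Tfe3 had 43.3, 34.5 and 54.4 CPM in Ctrl and 83.9, 104 and 96.1 CPM in LIP (log2 fold change 1.10, adjusted p = 0.000401), and Tfeb 96.5, 110 and 104 in Ctrl and 132, 145 and 124 in LIP (log2 fold change 0.37, adjusted p = 0.0212, edgeR). Neither overlapped between the groups. Against the neutrophil markers Tfe3 and Tfeb were lower and Mitf was not called. Tfec was too rare to be tested.

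The wider lysosomal lists moved less evenly, and the shares over all genes tested were 26.5% higher and 27.2% lower under TMM scaling. Among 25 other lysosomal enzymes 11 were higher and 4 lower under TMM scaling (median 0.37), Ppt1, the palmitoyl-protein thioesterase, by 1.47 (SE 0.124) and Acp5, the tartrate-resistant acid phosphatase, by -2.35 (SE 0.146) on the log2 scale. Among 19 other membrane and transport proteins 11 were higher and 2 lower (median 0.59), with Slc15a3, a transporter of peptides and histidine, at 1.70 (SE 0.162) and Tmem175, a lysosomal ion channel, at -0.56 (SE 0.211). Among 16 genes that sort enzymes to the lysosome 9 were higher and 3 lower (median 0.36). Sort1, a sorting receptor, had a log2 fold change of 1.80 (SE 0.272) and Gga2, an adaptor of the mannose 6-phosphate route, one of -2.58 (SE 0.171). Gga2 had 126, 85.8 and 122 CPM in Ctrl and 17.4, 19.8 and 18.8 CPM in LIP.

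Markers of the cells that a sort from blood could also hold were set beside the lysosomal genes, many of which are expressed by other blood cells. The summed mature neutrophil markers rose from 18559 ± 1720 FPKM in Ctrl to 58280 ± 2710 in LIP (n = 3 each, SD), and the most abundant of them, S100a9, had a log2 fold change of 2.03. All 8 tested erythroid markers fell (median -2.96), as did the B cell markers (median -2.60) and the T cell markers (median -2.54). The most abundant gene of each list was Hba-a1 at -2.80, Ighm at -2.15 and Lck at -1.32, and the last 2 had the smallest falls of their lists. Of 9 monocyte and macrophage markers 8 were higher (median 1.14), with a summed FPKM of 228 to 236 in Ctrl and 392 to 411 in LIP, and the most abundant, Cd68, itself a lysosomal membrane protein, was higher by 1.13. All 8 platelet markers were higher (median 1.23), with the most abundant, Ppbp, at 1.23. Of 7 eosinophil and basophil markers 2 were higher and 1 lower, and Siglecf, the most abundant, was higher by 1.44. These directions are under TMM scaling, and against the neutrophil markers the medians of the monocyte, platelet and eosinophil lists were -0.62, -0.53 and -1.10. The part of monocytes, macrophages or platelets in the lysosomal values was not tested.

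**Figure D4:**
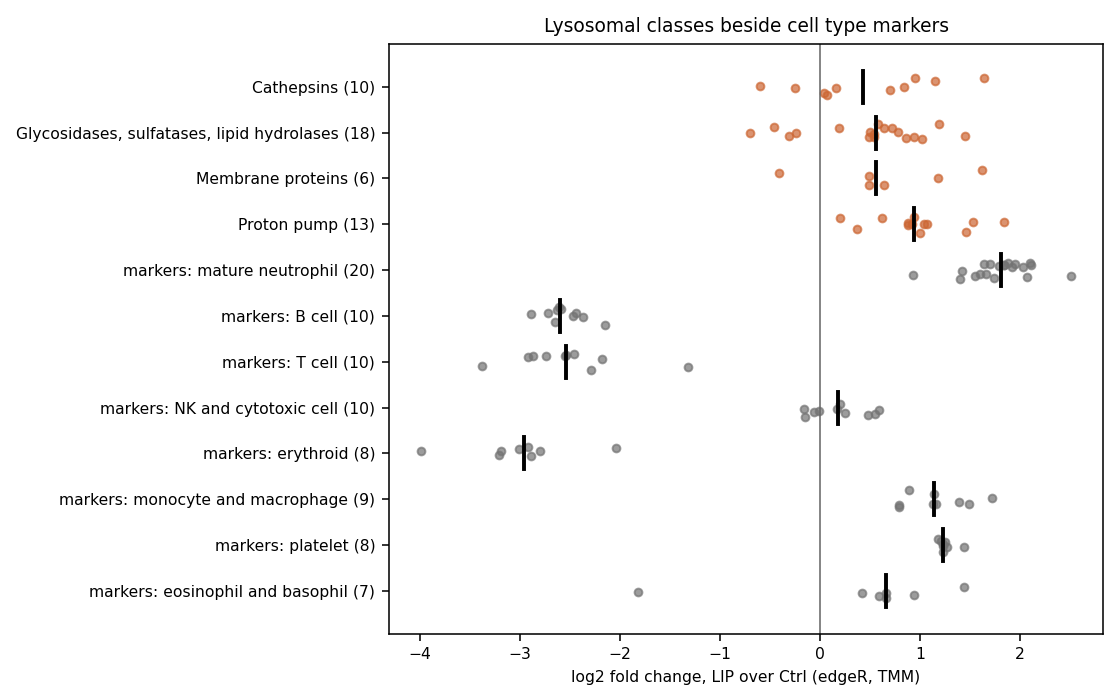
Log2 fold change, LIP over Ctrl under TMM scaling, of each gene of the 4 lysosomal classes (orange) and of the cell type lists (grey), with the median as a black bar and the number of genes tested in brackets; points are jittered vertically. The medians of the lysosomal classes run from 0.43 to 0.94, between those of the lymphocyte and erythroid lists below 0 and that of the mature neutrophil list at 1.82, so all 4 turn negative when scaled on the latter.

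Against the 20 neutrophil genes together, Ctsd differed by -0.12 on the log2 scale (adjusted p = 0.258, edgeR) and was not called. S100a9, the most abundant of them, rose more than their median, and the ratio of Ctsd to S100a9 by FPKM was 0.0313, 0.0296 and 0.0288 in Ctrl and 0.0218, 0.0227 and 0.0238 in LIP, so this ratio was lower in each LIP library.

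Some values are uncertain because of neighbouring genes. Of the 47 genes 7 overlap a neighbour expressed at 1 FPKM or more, namely Ctsa, Ctsb, Ctss, Ctsw, Ctsz, Glb1 and Manba, and the use of strand in counting is not given in the sources used here. Cd63, like Atp6v0c, has a processed pseudogene in the table, Cd63-ps, at a mean of 5.03 FPKM.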

How the data were processed

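The authors deposited, for each library, the count of reads on each gene, without normalization, and an FPKM value, which the authors computed from gene length and library size. Labels name cutadapt 1.9, FastQC and GRCm38 in the submitters' processing notes. The aligner, the counting tool and the use of strand are not given in the sources used here. Smart-seq2 copies full-length mRNA and amplifies it by PCR without molecular identifiers, so reads are not independent molecules.

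The 10440 genes whose FPKM averaged at least 1 across the 6 libraries were fitted with edgeR 4.0.16 (R 4.3.3, quasi-likelihood test, TMM normalization, group as the only term), with Benjamini-Hochberg adjustment over all of them and a threshold of 0.05. Values per gene are TMM-normalised CPM. Levels of different genes were set side by side as FPKM only. Of gene names on several lines of the table (50 names), the line with the higher mean FPKM was used. The common biological coefficient of variation was 0.265. Within a group, pairs of libraries differed by a chi-square per gene of 52.2 to 126, so no pair agreed within sampling noise.

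On simulated counts for 10440 genes with 200 of them changed, the test found 39% of genes changed by 1 on the log2 scale. It found 99% of genes changed by 2, and 7.4% of its calls were false. The simulation gave every gene the same spread and held no shift in make-up. In the data 26.5% of genes were called higher and 27.2% lower, so these rates need not hold for the calls above.

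The lysosomal genes and the lists were chosen with earlier results of these data known. All 47 are named. From each pathway list the called genes with the largest rise and the largest fall are named, with Tfeb, Tfe3, Mitf and Tfec, and from each cell type list the most abundant gene. The alternatives were DESeq2 1.42.0, limma 3.58.1 on log2(FPKM + 1) and log2(FPKM + 0.1), other scalings and filters, a replicate block, and each library left out in turn. Scaling on neutrophil genes used the median ratio over 20 genes. Same-numbered libraries came from different mice. Promoter windows are from RefSeq (GRCm38.p6) and gene models from GENCODE vM21.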

Additional observations from a re-analysis of the deposited data

How the results depend on the processing

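The direction depended on the scaling. Scaled on the mature neutrophil genes, 0 lysosomal genes were higher and 41 lower, beside 87.5% of all genes lower. The medians were -1.33 for cathepsins, -1.21 for other hydrolases, -1.20 for membrane proteins and -0.82 for the proton pump. The log2 fold changes that turned negative under this scaling were, for cathepsins, Ctsa -0.92, Ctsb -0.82, Ctsc -1.72, Ctsd -0.12, Ctse -1.07, Ctsl -0.62, Ctss -1.60 and Ctsz -1.69. For other hydrolases they were Hexa -1.05, Gusb -1.27, Gla -0.31, Man2b1 -0.75, Manba -1.23, Fuca1 -0.90, Neu1 -1.23, Arsa -1.12, Arsb -1.27, Asah1 -0.57, Lipa -1.19, Smpd1 -1.58, Psap -0.99 and Gm2a -0.82. For membrane proteins they were Lamp1 -1.27, Lamp2 -0.14, Cd63 -0.59, Scarb2 -1.12 and Laptm5 -1.27. For the pump they were Atp6v0b -0.82, Atp6v0c -0.76, Atp6v0d1 -0.70, Atp6v0e -0.88, Atp6v1a -0.30, Atp6v1b2 -0.23, Atp6v1d -1.15, Atp6v1e1 -0.88, Atp6v1f -1.39, Atp6v1h -1.56, Atp6ap1 -0.85 and Atp6ap2 -0.73. By its construction this scaling lowers each gene by the rise of the reference genes, and it moved the median of all genes from -0.09 to -1.86.

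With library totals, which moved the median of all genes to -0.42, 26 lysosomal genes were higher and 5 lower (Ctsw, Ctsh, Gaa, Naglu and Mcoln1), Gusb, Neu1, Lipa, Lamp1, Atp6v1d and Atp6v1f no longer passed, and the medians were 0.11, 0.24, 0.25 and 0.62 for cathepsins, other hydrolases, membrane proteins and pump. Over all genes the split was 1919 higher and 4146 lower, against 2766 and 2835 under TMM. Ctsc -0.28, Ctss -0.16, Ctsz -0.24, Smpd1 -0.14 and Atp6v1h -0.12 changed sign. The limma fits, on FPKM set to library totals, gave 25 higher and 6 lower with either pseudocount: beside the changes under library totals, Scarb2 no longer passed (adjusted p = 0.0697 and 0.075 with pseudocounts of 0.1 and 1) and Glb1 was lower (adjusted p = 0.0458 and 0.0423). Their medians were 0.12, 0.25, 0.26 and 0.63 with a pseudocount of 0.1, where Ctsc -0.28, Ctss -0.14, Ctsz -0.22, Smpd1 -0.19 and Atp6v1h -0.14 changed sign, and 0.11, 0.24, 0.24 and 0.62 with a pseudocount of 1, where these were -0.27, -0.14, -0.22, -0.16 and -0.09. With genes at a mean FPKM of at least 5 alone, 31 were higher and 2 lower, and Ctsc -0.13, Ctss -0.00 and Ctsz -0.09 changed sign.

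DESeq2, median-of-ratios factors and the replicate block each gave 33 higher and 1 lower, Arsa being the gene added (adjusted p = 0.0204 in DESeq2). The replicate block moved no other call, and the same-numbered libraries of the groups correlated at 0.021, 0.056 and 0.036 in their deviations, so the numbers do not pair them. edgeR's own filter and the removal of haemoglobin genes kept the counts at 32 and 1, and no filter gave 31 and 1. With each library left out in turn, 31 to 34 genes were higher and 1 to 2 lower. The second lower gene was Gaa without Lig 1, Ctsh without Lig 2 and Naglu without Lig 3. Ctsc ranged from -0.07 without Lig 2, through -0.01 without Ctrl 2, to 0.15, and Smpd1 from -0.13 without Lig 1 to 0.46. The standard errors were 0.361 for Manba and 0.308 for Naglu, which had 378 to 1007 and 269 to 904 reads per library.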
